A study of Rattus norvegicus with 13 samples.

Results

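The prefoldin and tubulin folding cofactor genes encode proteins that bring newly made actin and tubulin to their folded form. Probe sets were taken where the array's annotation gives a single symbol and that symbol is *Pfdn1*, *Pfdn2*, *Pfdn4*, *Pfdn5*, *Vbp1*, *Tbca*, *Tbcb*, *Tbcc*, *Tbcd* or *Tbce*. Of these 10 genes 9 had such a probe set, and *Vbp1*, an alpha-class prefoldin subunit, had none. There were 11 probe sets of 31099 in all, with 2 each for *Pfdn2* and *Tbcd* and 1 for each other gene.

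Polyadenylated RNA of cultured rat cortical neurons was read on GeneChip arrays. The cells grew in a compartmentalised microfluidic platform, whose channels let axons, but not cell bodies, enter a second chamber. The 3 samples of regenerating axons were axotomised at day 11 and collected after 2 days of regrowth, the 3 samples of neurons were uninjured and came from the neuronal compartment, and the 7 samples of uninjured axons came from 3 culture batches. All were harvested on day 13 in Neurobasal E medium with B27, with 3 platforms pooled for each array and 2 rounds of amplification. The values are ratios, and no source used here gives the denominator of the regenerating and neuron arrays. The level in uninjured axons was assumed for it, and every direction given against uninjured axons rests on that reading. Uninjured array 7 is 1 for every probe set. The spread among uninjured axons therefore comes from the other 6 uninjured arrays, which were divided by the median of their own set of 3. In comparisons with uninjured axons it was pooled with the spread of the 3 arrays compared. Division by its own median sets each uninjured set to a median of 1. The uninjured ranges below therefore hold spread within sets only.

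In the eukaryotic cytosol, prefoldin binds actin and tubulin chains as they leave the ribosome and hands them to the chaperonin CCT, a ring-shaped folding machine. Tubulin released by CCT passes to the tubulin folding cofactors. Cofactors A and D hold beta-tubulin, cofactors B and E hold alpha-tubulin, and cofactor C completes the assembly from which the alpha-beta dimer is released. Axons are packed with microtubules built from this dimer, and loss of prefoldin 5 or of cofactor E function causes neurodegeneration in mice.

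In regenerating axons *Pfdn5* fell against uninjured axons and *Tbca*, *Tbcb*, *Pfdn1* and 1 probe set of *Pfdn2* read low on every array without passing the threshold, while *Tbcc*, *Tbcd* and *Tbce* read near 1. In neurons, 8 of the 11 probe sets were higher than in uninjured axons, *Pfdn1* and *Tbca* did not pass, and 1 probe set of *Tbcd* was lower. The plot of ratios by array shows each value.

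**Figure D1:**
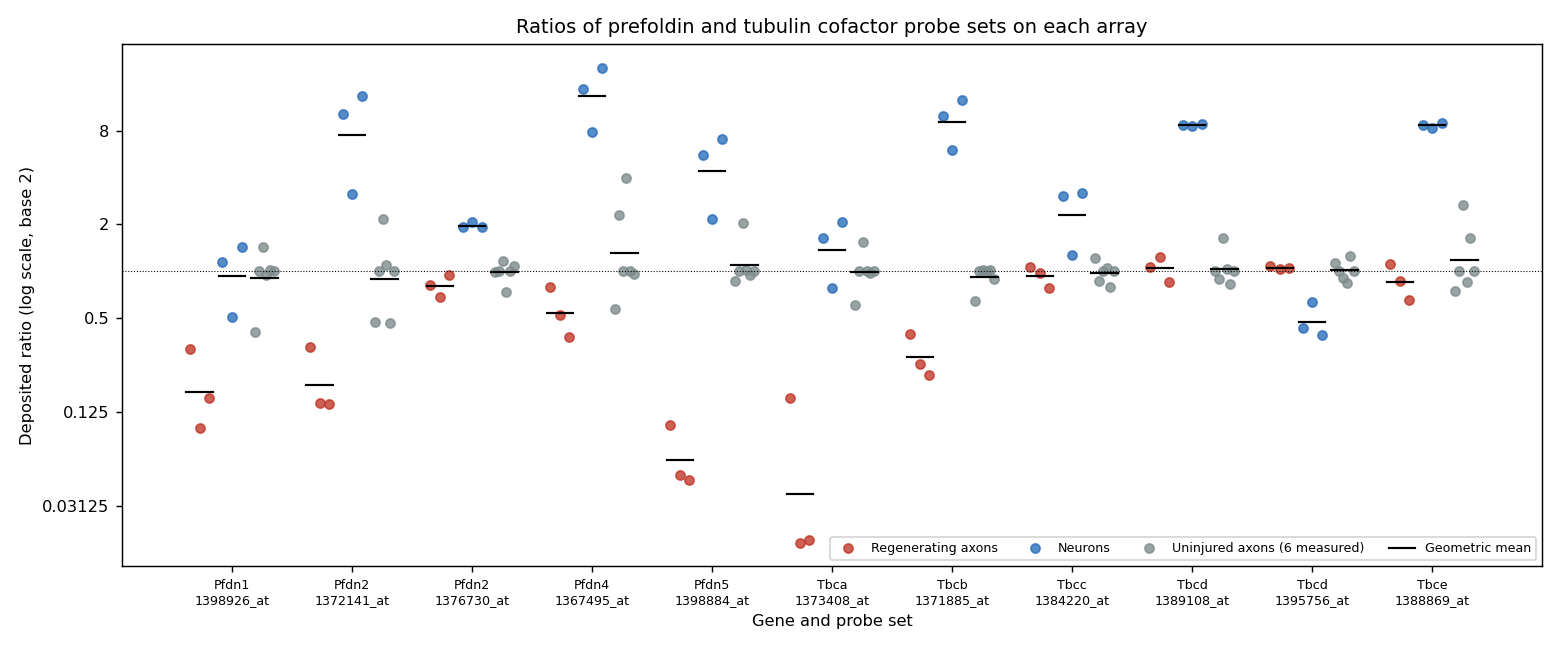
Deposited ratio (log axis) of each of the 11 probe sets on the 3 regenerating, 3 neuron and 6 measured uninjured arrays; points are arrays, bars are geometric means and the dotted line marks a ratio of 1. *Pfdn5* and *Tbca* lie lowest in regenerating axons, at 0.0454 to 0.104 and 0.0181 to 0.153, and *Pfdn4* lies highest in neurons, at 7.85 to 20.3.

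Setting regenerating against uninjured axons addresses what axotomy and 2 days of regrowth do to the axonal pool of these transcripts. Of the 11 probe sets 1 was called lower and none higher, where 0.335% of all 31042 probe sets tested were called lower and 0.00966% higher. At an unadjusted p under 0.05, limma gave 5 members lower and none higher, where 6.89% of all probe sets were lower and 3.97% higher. These 5 were also those whose regenerating arrays all lay below every uninjured array, against 10.9% of all probe sets. No member lay wholly above, against 10.3% of all probe sets. The median log2 difference of the 11 was -0.89, against 0.03 over all probe sets.

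Among prefoldin subunits, *Pfdn5*, which encodes an alpha-class subunit also known as a binding partner of MYC, had the largest difference. It read 0.104, 0.0492 and 0.0454 in regenerating axons, against 0.867 to 2.06 (median 1) in uninjured axons. No regenerating array came within the uninjured range. The fall was 16.3-fold (log2 -4.03 ± 0.51, SE, n = 3 arrays, limma adjusted p = 0.0275). That call was lost without regenerating array 2 (adjusted p = 0.108) or 3 (0.0875), without uninjured array 2 (0.0516) or 6 (0.0612), and with the spread taken from the regenerating arrays alone (0.0505), all in limma.

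*Pfdn1*, a beta-class subunit, read 0.317, 0.0993 and 0.153 in regenerating axons, against 0.409 to 1.43 (median 1) in uninjured axons. The groups did not overlap, and the log2 difference was -2.57 ± 0.67 (limma adjusted p = 0.151). *Pfdn2*, another beta-class subunit, gave unlike answers from its probe sets. By probe set 1372141_at it read 0.326, 0.142 and 0.140 in regenerating axons, against 0.468 to 2.16 in uninjured axons (log2 -2.42 ± 0.77, limma adjusted p = 0.237). By probe set 1376730_at it read 0.817, 0.684 and 0.950, against 0.742 to 1.16 in uninjured axons, and the groups overlapped (log2 -0.30, 95% interval -0.87 to 0.26). *Pfdn4*, also of the beta class, read 0.798, 0.526 and 0.376 in regenerating axons, 1 inside and 2 below an uninjured range of 0.572 to 3.996. Its log2 difference of -0.89 had an interval of -2.81 to 1.03, the widest among the prefoldin probe sets in this comparison.

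The cofactors divided into 2 genes that read low in regenerating axons and 3 that read near 1. *Tbca*, whose product takes up beta-tubulin released by CCT, had the lowest ratios of the set, at 0.153, 0.0181 and 0.0189 in regenerating axons against 0.610 to 1.54 (median 1) in uninjured axons. Array 1 lay well above arrays 2 and 3, and all 3 lay below the uninjured range. The log2 difference was -4.74 ± 0.99, and 0.0451% of all probe sets had a lower value. With this spread between arrays it did not pass (limma adjusted p = 0.0872), and without array 1 it was at -5.76 (adjusted p = 0.000196). Without array 2 it was at -4.22 (limma adjusted p = 0.203) and without array 3 at -4.25 (limma adjusted p = 0.198). *Tbcb*, the alpha-tubulin partner that works with cofactor E, read 0.397, 0.255 and 0.217 in regenerating axons, against 0.641 to 1.03 in uninjured axons. The groups did not overlap, and the log2 difference of -1.84 ± 0.35 missed the threshold (limma adjusted p = 0.0616). Averaged over probe sets per gene and adjusted over 14217 genes, the same difference passed narrowly (limma adjusted p = 0.04999).

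For the late-acting cofactors the regenerating and uninjured arrays overlapped. *Tbcc*, which completes the dimer-releasing assembly, read 1.07, 0.970 and 0.782 in regenerating axons, against 0.792 to 1.21 in uninjured axons. *Tbcd*, the beta-tubulin cofactor, read 1.07, 1.24 and 0.857 by probe set 1389108_at in regenerating axons, against 0.834 to 1.63 in uninjured axons. By probe set 1395756_at it read 1.08, 1.04 and 1.04 in regenerating axons, against 0.841 to 1.26 in uninjured axons. *Tbce*, the alpha-tubulin cofactor, read 1.11, 0.873 and 0.659, against 0.748 to 2.68 in uninjured axons. The 95% intervals of these log2 differences were -0.68 to 0.48 for *Tbcc*, -0.67 to 0.79 and -0.44 to 0.59 for *Tbcd*, and -1.58 to 1.15 for *Tbce*. For *Tbce* this allows a change of 2-fold in either direction.

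Counts in this comparison turned on single arrays and on the error assigned to the reference. Called as lower were 4 members (*Pfdn1*, *Pfdn5*, *Tbca* and *Tbcb*) without regenerating array 1, none without regenerating array 2 or 3 or without uninjured array 2 or 6, and 2 (*Pfdn5* and *Tbcb*) without uninjured array 1. Over all probe sets the count of 104 called lower became 462 without regenerating array 1, 6 without regenerating array 2, 0 without regenerating array 3, 294 without uninjured array 1, 16 without uninjured array 2, 191 without uninjured array 4, 35 without uninjured array 5 and 17 without uninjured array 6. With the reference taken as free of error 5 members were called lower, against 11.9% of all probe sets.

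Some control values moved with these ratios and others did not. Regenerating array 1 was the highest of the 3 in 9 of the 11 probe sets, against 32.7% of all probe sets. The GAPDH control of the array, by its 3′ probe set, read 0.355, 0.159 and 0.142 in regenerating axons, against 0.620 to 1.42 in uninjured axons. By its 5′ probe set it read 0.50, 0.35 and 0.25, against 0.599 to 1.10 in uninjured axons. The beta-actin control lay nearer to 1. By its 3′ probe set it read about 0.8, 0.7 and 0.6 in regenerating axons, against 0.965 to 1.17 in uninjured axons. By its 5′ probe set it read 0.796, 1.07 and 0.824, against 0.852 to 1.06 in uninjured axons. Bacterial transcripts spiked in as hybridisation controls had medians of 1.14, 1.44 and 1.57 in regenerating axons, against 0.928 to 1.10 in uninjured axons. The 15 probe sets of 9 neuronal marker genes had medians of 0.545, 0.702 and 0.523 on regenerating arrays 1, 2 and 3, highest on array 2. In uninjured axons these medians were 0.949 to 1.02. Of these 15 limma called none in regenerating axons (6 lower at an unadjusted p under 0.05). Their log2 differences spread widely around the median, between -4.48 and 0.37, with 10 of the 15 below 0. Of 17 astrocyte, 9 oligodendrocyte lineage and 8 microglial marker probe sets none was called in regenerating axons either. At an unadjusted p under 0.05 in limma, 1 astrocyte and 1 microglial probe set were higher and 1 oligodendrocyte lineage probe set was lower. Log2 differences ran between -1.98 and 0.77 for astrocyte, -2.80 and 0.46 for oligodendrocyte lineage and 0.13 and 0.61 for microglial probe sets. The part of these in the low ratios was not tested, and in bulk samples fewer axons and less of a transcript per axon cannot be told apart.

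Promoter sequence is shown for *Pfdn5* and *Tbca*, which read lowest in regenerating axons, and for *Tbcd*, which read near 1 there. Each line gives the 250 bases before the annotated start, 5′ to 3′ on the gene's strand, from RefSeq (GRCr8), at chr7:135330114-135330363, chr2:27746283-27746532 and chr10:107215417-107215666, all on the plus strand. Capitals mark matches on either strand to any of 8 motifs searched.
Pfdn5: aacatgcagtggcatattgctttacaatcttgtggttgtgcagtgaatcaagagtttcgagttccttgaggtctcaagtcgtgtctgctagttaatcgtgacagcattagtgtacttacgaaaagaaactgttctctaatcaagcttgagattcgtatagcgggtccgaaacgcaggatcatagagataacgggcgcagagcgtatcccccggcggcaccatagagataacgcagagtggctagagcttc
Tbca: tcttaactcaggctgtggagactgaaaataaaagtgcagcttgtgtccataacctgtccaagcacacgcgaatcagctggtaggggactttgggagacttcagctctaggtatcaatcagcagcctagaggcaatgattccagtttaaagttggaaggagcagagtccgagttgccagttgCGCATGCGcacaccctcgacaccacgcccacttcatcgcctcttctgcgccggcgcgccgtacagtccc
Tbcd: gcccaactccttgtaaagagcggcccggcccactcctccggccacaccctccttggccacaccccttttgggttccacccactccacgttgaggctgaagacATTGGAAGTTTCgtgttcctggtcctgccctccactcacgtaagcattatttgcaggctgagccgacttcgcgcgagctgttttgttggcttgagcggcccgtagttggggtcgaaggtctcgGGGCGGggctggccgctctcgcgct
The letters searched were GGGCGG (GC box), CCAAT (bound by NF-Y), TATAAA (bound by TBP), CCGGAA (ETS core), CGCATGCG (NRF1 core), TGACGTCA (cyclic AMP response element), GAANNTTC (heat shock element pair) and AAGATGG (YY1 core). The *Pfdn5* window held none of them. The *Tbca* window held the NRF1 core, found in 1.47% of 33469 rat windows of the same length, and was the only one of 8 member windows with it. The *Tbcd* window held the GC box, the NF-Y motif and, overlapping that motif on the other strand, the heat shock element pair, found in 30.5%, 34.0% and 7.23% of all windows. These matches describe letters and not factor binding.

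Setting neurons against uninjured axons addresses how these transcripts are divided between the neuronal compartment and the axon. Of the 11 probe sets 8 were called higher in neurons and 1 lower, where 28.4% of all probe sets were called higher and 27.5% lower. The median log2 difference was 2.15, against -0.07 over all probe sets. In these 9 probe sets the neuron arrays did not overlap the uninjured arrays, where 33.1% of all probe sets lay wholly higher and 36.8% wholly lower. This comparison uses the same reference as the one above, so the values stand side by side and are not independent.

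*Pfdn4* had the highest ratios, at 14.8, 7.85 and 20.3 in neurons against 0.572 to 3.996 in uninjured axons. The difference was 13.3-fold (log2 3.73 ± 0.90, limma adjusted p = 0.00654). *Pfdn2* by probe set 1372141_at read 10.2, 3.15 and 13.3 in neurons, against 0.468 to 2.16 in uninjured axons (log2 2.91 ± 0.90, limma adjusted p = 0.0204). By probe set 1376730_at it read 1.92, 2.07 and 1.92, against 0.742 to 1.16 in uninjured axons (log2 0.98 ± 0.23, limma adjusted p = 0.00649). Both pass in the same direction and differ in size. *Pfdn5* read 5.62, 2.16 and 7.12 in neurons, against 0.867 to 2.06 in uninjured axons (log2 2.15 ± 0.61, limma adjusted p = 0.0144), with neuron array 2 just above the highest uninjured array. The *Pfdn5* call was lost with the spread taken from the neuron arrays alone (limma adjusted p = 0.0608), and that of *Pfdn2* by probe set 1372141_at without neuron array 1 (limma adjusted p = 0.0516). *Pfdn1* stood apart from the other subunits in reading near 1, at 1.14, 0.506 and 1.43 in neurons against 0.409 to 1.43 in uninjured axons. Its log2 difference of -0.09 had a 95% interval of -1.56 to 1.38, which leaves room for a difference either way.

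Of the cofactors, *Tbcb* read 9.97, 6.05 and 12.6 in neurons, against 0.641 to 1.03 in uninjured axons, a 9.13-fold difference (log2 3.19 ± 0.39, limma adjusted p = 0.000149). *Tbce* read 8.72, 8.33 and 9.03 in neurons, against 0.748 to 2.68 in uninjured axons (log2 3.12 ± 0.59, limma adjusted p = 0.00189). Its neuron arrays lay close together. *Tbcd* by probe set 1389108_at also had neuron arrays close together, at 8.72, 8.54 and 8.90 in neurons against 0.834 to 1.63 in uninjured axons (log2 3.12 ± 0.31, limma adjusted p = 4.08e-05). The other *Tbcd* probe set, 1395756_at, read the opposite way, at 0.434, 0.633 and 0.390 in neurons against 0.841 to 1.26 in uninjured axons (log2 -1.07 ± 0.31, limma adjusted p = 0.0145). That call was lost with the spread taken from the neuron arrays alone (limma adjusted p = 0.0577). The direction of *Tbcd* therefore depends on the probe set, and the mean of both was higher in neurons by log2 1.03 (limma adjusted p = 0.00213). *Tbcc* read 3.05, 1.27 and 3.19 in neurons, against 0.792 to 1.21 in uninjured axons (log2 1.21 ± 0.46, limma adjusted p = 0.0461). That call passed in 6 of 15 alternative settings, over which its adjusted p in limma ran between 0.000664 and 0.149. *Tbca* read 1.64, 0.779 and 2.06 in neurons, against 0.610 to 1.54 in uninjured axons, and did not pass (log2 0.47, 95% interval -0.75 to 1.68).

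Neuron array 2 was the lowest of the 3 in 9 of the 11 probe sets, against 43.7% of all probe sets. Its member median was 2.16, beside 5.62 and 7.12 on arrays 1 and 3. The hybridisation controls read 0.275, 0.910 and 0.157 on neuron arrays 1, 2 and 3, so array 2 also lay nearest to 1 in these controls. The GAPDH control was high in neurons and lowest on array 2, at 13.7, 7.19 and 16.6 by its 3′ probe set, against 0.620 to 1.42 in uninjured axons. By its 5′ probe set it read 64.1, 24.0 and 70.8 in neurons. The beta-actin control by its 3′ probe set read 71.2, 38.4 and 80.1 in neurons, against 0.965 to 1.17 in uninjured axons. The part of these controls in the ratios was not tested. Without neuron array 2, *Pfdn1* was at log2 0.35 (limma adjusted p = 0.613). The samples labelled neurons read high for 11 of 15 neuronal marker probe sets (lower in 1) and also for 11 of 17 astrocyte marker probe sets (lower in 2), whose medians were 7.32 to 10.1 on the neuron arrays. Microglial markers were called lower in neurons in 6 of 8 probe sets and higher in none. Over all probe sets 28.4% were called higher in neurons and 27.5% lower. A ratio shows no level, so which cells of the compartment carry these transcripts was not tested.

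**Figure D2:**
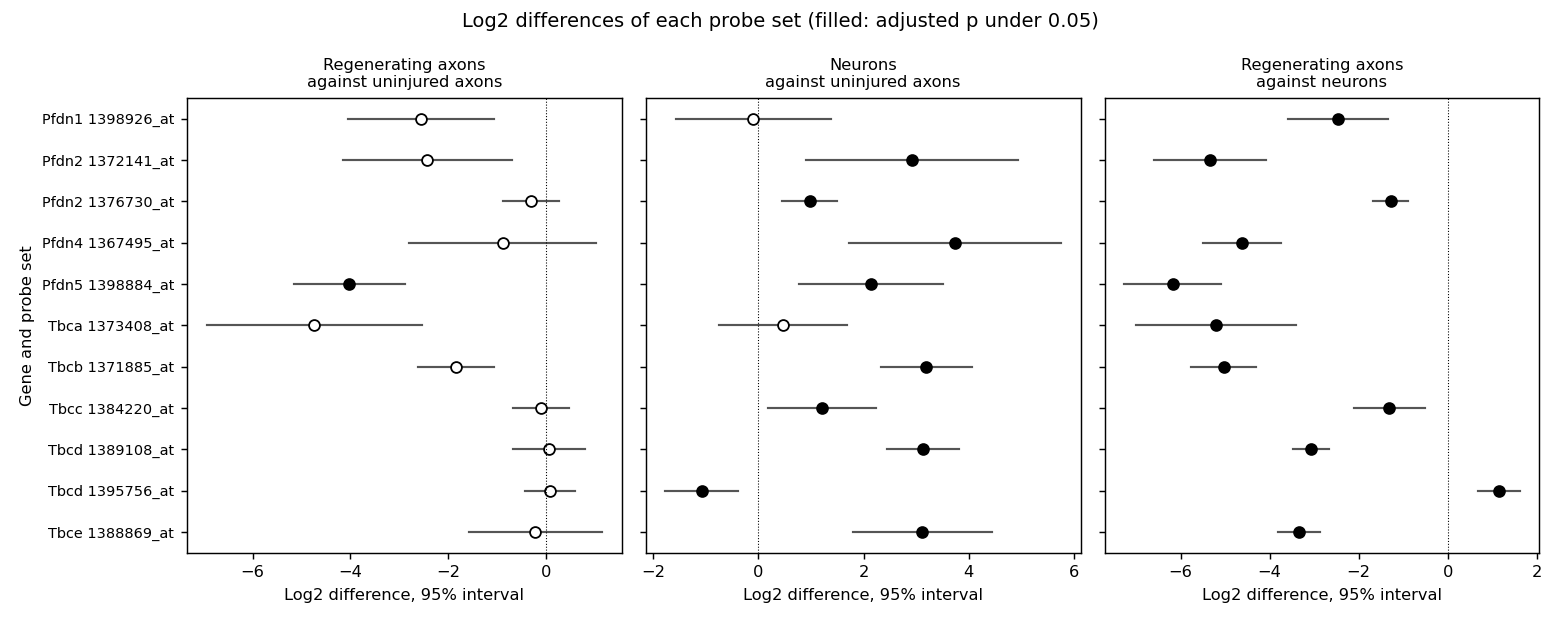
Log2 difference of each probe set with its 95% interval from limma for the 3 comparisons; filled points have an adjusted p under 0.05. Against uninjured axons, *Pfdn5* alone is filled for regenerating axons, while 9 of 11 probe sets are filled for neurons and all 11 for regenerating axons against neurons.

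Regenerating axons were also set directly against neurons, a comparison in which a denominator shared by both groups would cancel. These groups differ both in axotomy and in compartment, and the parts of each cannot be told apart. Of the 11 probe sets 10 were called lower in regenerating axons and 1 higher, where 35.2% of all probe sets were called lower and 37.3% higher. The groups did not overlap in any of the 11, where 36.9% of all probe sets lay wholly lower and 40.4% wholly higher in regenerating axons. The median log2 difference was -3.34, against 0.08 over all probe sets.

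*Pfdn5* differed most, by log2 -6.17 ± 0.47 (limma adjusted p = 1.18e-05), and 0.561% of all probe sets had a lower value. *Pfdn2* by probe set 1372141_at (-5.34 ± 0.55), *Tbca* (-5.21 ± 0.78), *Tbcb* (-5.03 ± 0.32) and *Pfdn4* (-4.62 ± 0.38) were next in size. For *Tbca* this came with ratios of 0.0181 to 0.153 in regenerating axons and 0.779 to 2.06 in neurons. *Pfdn4* showed the opposite make-up, at 0.376 to 0.798 in regenerating axons and 7.85 to 20.3 in neurons. *Tbce* (-3.34 ± 0.21), *Tbcd* by probe set 1389108_at (-3.06 ± 0.18) and *Pfdn1* (-2.47 ± 0.49) were lower too. The smallest falls were those of *Tbcc* (-1.31 ± 0.35) and of *Pfdn2* by probe set 1376730_at (-1.28 ± 0.17), and the second *Tbcd* probe set was higher (1.15 ± 0.20). Adjusted p-values of these 11 in limma ran between 2.47e-06 and 0.00890, and all 11 calls held when any 1 of the 6 arrays was left out.

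The partners that act beside these genes on the folding route were examined as lists. *Pfdn6*, the remaining beta-class prefoldin subunit, read 0.624, 0.273 and 0.375 in regenerating axons, against 0.809 to 1.55 in uninjured axons (log2 -1.32 ± 0.45, limma adjusted p = 0.269). It read 12.6, 4.03 and 16.4 in neurons (log2 3.23 ± 0.65, limma adjusted p = 0.00262). All regenerating arrays lay below and all neuron arrays above the uninjured range.

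For the CCT chaperonin, which receives chains from prefoldin, 8 of 9 genes had 11 probe sets. Against uninjured axons 2 of them were called lower in regenerating axons and none higher, with a list median of log2 -1.29. In neurons 10 were called higher and none lower, with a median of 3.59. Of all probe sets 0.335% were called lower in regenerating axons and 28.4% higher in neurons. At an unadjusted p under 0.05, limma gave 7 CCT probe sets lower and none higher in regenerating axons. By that measure 5 of the 11 member probe sets and 6.89% of all probe sets were lower. *Cct7* had the largest called difference in both comparisons, at -3.38 ± 0.49 in regenerating axons (limma adjusted p = 0.0361) and 5.25 ± 0.50 in neurons (limma adjusted p = 3.68e-05). The list medians on the regenerating arrays were 0.453, 0.339 and 0.385, and those of the 11 prefoldin and cofactor probe sets were 0.798, 0.526 and 0.376.

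Tubulins were represented by 12 of 19 genes with 19 probe sets. The list holds alpha- and beta-tubulins, the cargo of the cofactors, and also gamma-tubulin (*Tubg1*) and epsilon-tubulin (*Tube1*). In regenerating axons 1 of the 19 probe sets was called lower and none higher (median log2 -0.08), namely *Tubb5* by probe set 1387892_at, at -3.29 ± 0.55 (limma adjusted p = 0.0474). The other *Tubb5* probe set, 1370290_at, was at -0.65 ± 0.29 and did not pass (limma adjusted p = 0.462). At an unadjusted p under 0.05, limma gave 5 of the 19 lower and none higher. *Tubb2a* differed more than *Tubb5*, at -3.71 ± 0.88, and did not pass (limma adjusted p = 0.121). In neurons 10 were higher and 2 lower (median 1.15), where 28.4% of all probe sets were called higher and 27.5% lower. There *Tubb5* was at 5.24 ± 0.39 by the first probe set (limma adjusted p = 1.07e-05). *Tubb1*, an isotype known from platelets, was at -2.15 ± 0.38 (limma adjusted p = 0.00142). Probe sets of closely similar tubulin genes can share signal.

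**Figure D3:**
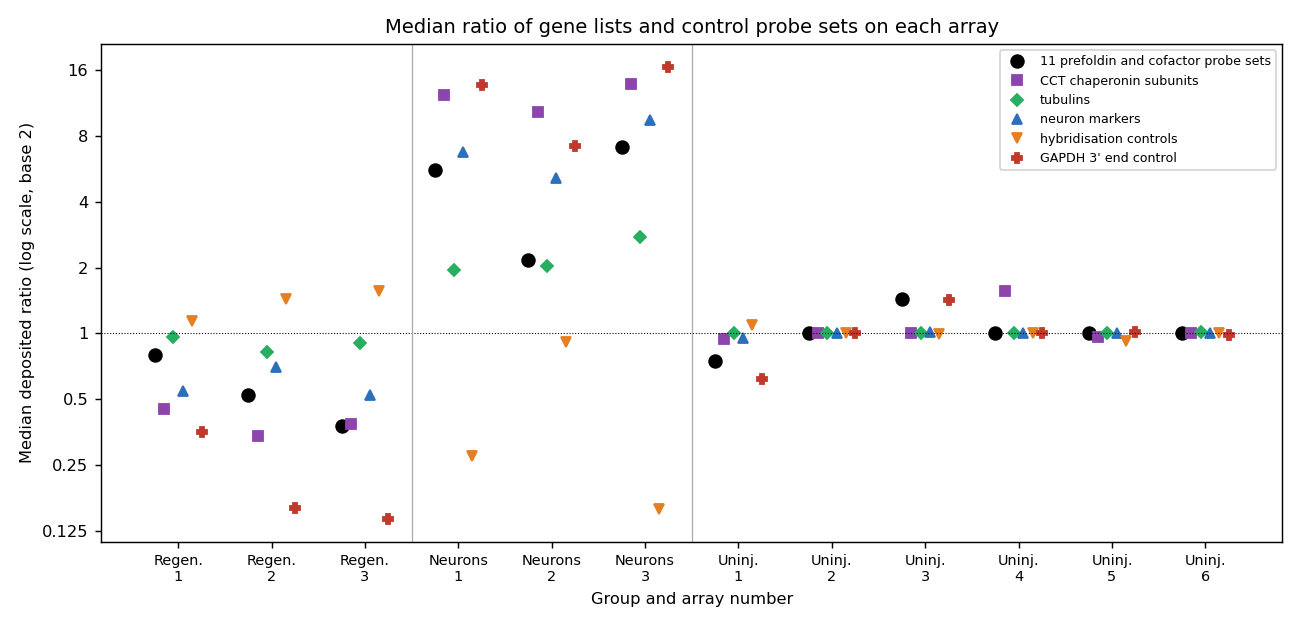
Median deposited ratio (log axis) on each regenerating, neuron and measured uninjured array for the 11 prefoldin and cofactor probe sets, CCT subunits, tubulins, neuronal markers and control probe sets. The 11 probe sets have medians of 0.376 to 0.798 in regenerating axons, 2.16 to 7.12 in neurons and 0.748 to 1.43 in uninjured axons.

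Within the uninjured axons the median of the 11 probe sets lay furthest from 1 on arrays 1 and 3. The highest single ratio was that of *Pfdn4* on array 4, at 3.996. Array 1 had a member median of 0.748 and array 3 one of 1.43, while arrays 2, 4, 5 and 6 lay between 1 and 1.01. Array 1 read below 1 and array 3 above 1 in 7 of the 11 probe sets, against 19.5% of all probe sets. *Pfdn1* read 0.409 on array 1 and 1.43 on array 3, and *Tbca* read 0.610 and 1.54 on the same arrays. The GAPDH control moved likewise by its 3′ probe set, at 0.620 and 1.42, and by its 5′ probe set read 0.599 and 1.02. The beta-actin control read 1 and 1.09 on these arrays by its 3′ probe set, and 0.889 and 1.06 by its 5′ probe set. Since each set was divided by its own median, differences between the 2 sets cannot be seen.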

How the data were processed

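RNA from 13 samples was hybridised to GeneChip arrays. The deposited table holds linear ratios for 31099 probe sets. RMA is named in the submitters' processing notes, and its version, its settings and the step that made ratios are not given in the sources used here. From the deposited values, the row median is 1 over uninjured arrays 1 to 3 and over arrays 4 to 6 in 100% of rows (tolerance 0.0001). Columns were matched to samples by accession, and none belonged to another series. Symbols came from the array's annotation, and all 9 measured members kept theirs in a table of the GRCr8 assembly.

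The log2 ratios of the 31042 probe sets that are not controls were fitted with limma 3.58.1 (R 4.3.3, lmFit and eBayes), and p-values were adjusted by Benjamini and Hochberg over all of them, with a threshold of 0.05. Against uninjured axons, the 3 arrays of a group were compared with a ratio of 1 that was given the error of 1 array. That error was assigned, not measured. Residuals of those 3 arrays, and of the 6 measured uninjured arrays around their own set's mean, gave the spread. Regenerating axons and neurons were compared in a 2-group fit. Errors are standard errors of the fit (n = 3 arrays). The uninjured samples came from 3 culture batches, but the batch of each array is not given in the labels. Whether the replicate arrays of the other groups came from separate cultures is not given there either. The p-values may therefore measure technical spread in part or only. The number of arrays limits the precision, and ratios carry no signal level. The fits were tested on simulated data. The simulation gave the reference the same error of 1 array as the fit, so it could not check that assigned error.

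All members are named. Of the lists of partners, CCT subunits, tubulins and actins, the probe set with the largest called rise in neurons is named. The largest called falls against uninjured axons are named for CCT subunits and tubulins only. Marker lists are given as summaries without gene names. The other genes named were chosen after their values were seen. The members and lists were chosen with earlier results of these data known. Alternatives were the error of the reference, centring, the source of the spread, a filter, gene means, a replicate block and leaving out each array. Arrays with the same number did not deviate together throughout (r between -0.09 and 0.13 for regenerating axons and neurons), so the number was not taken to pair them. Promoter windows were matched by gene identifier for 8 members.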

Additional observations from a re-analysis of the deposited data

Results flagged for a closer look

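Among the 6 measured uninjured arrays, 1 array stood apart from the other 5 by Dixon's test on log2 ratios in 5 of the 11 probe sets. The arrays were number 1 for *Pfdn1* (ratio 0.409) and *Tbcb* (0.641), number 3 for *Pfdn5* (2.06) and for *Tbcd* by probe set 1389108_at (1.63), and number 4 for *Pfdn2* by probe set 1376730_at (0.742). Chance flags about 1 in 20 groups of unrelated values, but 18.9% of all 31042 probe sets were flagged here. Dividing each set of 3 by its median places 1 array of each set at exactly 1.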

How the results depend on the processing

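Each comparison with uninjured axons was repeated under 15 alternatives and regenerating axons against neurons under 11. The 8 calls of higher members in neurons and the 10 calls of lower members in regenerating axons against neurons stayed within 1.5 times under each of these. For members lower in regenerating than in uninjured axons the count of 1 became 5 with the reference taken as free of error, 0 with the spread from the regenerating arrays only and 2 with gene means, and 0 to 4 on leaving out 1 array. Over all probe sets the same count of 104 became 3707 and 92 under the first and second of these and 0 to 462 on leaving out 1 array. The count of 3 probe sets higher in regenerating axons became 3539 with the reference free of error. The 1 member lower in neurons became 0 with the spread from the neuron arrays only and 0 with gene means, and the 1 member higher in regenerating axons than in neurons became 0 with gene means. Both are *Tbcd* probe set 1395756_at, whose log2 values of -1.07 and 1.15 turned to 1.03 and -0.96 because the gene mean includes the other probe set. With the replicate number as a block, 1 member was lower and 0 higher in regenerating than in uninjured axons, 8 were higher and 1 lower in neurons, and 10 were lower and 1 higher in regenerating axons against neurons. The block gave 600 lower and 68 higher probe sets in all for regenerating against uninjured axons. Where no cause is named, it was not tested. Ratios give no signal over background, so a ratio near 1 cannot be told from a transcript that was not measured.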

Other observations

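Transcripts of 13 genes whose proteins are related to prefoldin or to the cofactors were measured by 19 probe sets, among them *Uri1*, *Uxt* and *Pdrg1*, which belong to a prefoldin-like complex, and *Arl2*, a small GTPase that binds cofactor D. None was called in regenerating against uninjured axons (limma, with 1 lower at an unadjusted p under 0.05), and the log2 differences ran between -1.06 and 0.33 with a median of 0.13. *Pdrg1* had the lowest value, at 0.459, 0.553 and 0.432 in regenerating axons against 0.945 to 1.37 in uninjured axons (limma adjusted p = 0.148). In neurons 10 of the 19 were higher and 1 lower (median 1.07), where 28.4% of all probe sets were called higher and 27.5% lower. *Pdcl3*, a phosducin-like protein that binds CCT, had the largest called difference (3.35 ± 0.46, limma adjusted p = 0.000324), at 12.8, 6.58 and 12.6 in neurons against 0.896 to 1.79 in uninjured axons. Its other probe sets were at -0.62 and 0.07 and did not pass. *Arl2* read 3.60, 1.501 and 4.22 in neurons, against 0.962 to 1.48 in uninjured axons (log2 1.504 ± 0.49, limma adjusted p = 0.0246).

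Actin is the other main cargo of prefoldin and CCT, and 4 of 6 actin genes had 5 probe sets. None was called in regenerating against uninjured axons (limma, with 2 lower at an unadjusted p under 0.05). *Actg1*, cytoplasmic gamma-actin, read 0.260, 0.197 and 0.271 in regenerating axons by probe set 1371327_a_at, against 0.488 to 1.19 in uninjured axons (log2 -2.06 ± 0.41, limma adjusted p = 0.0719). In neurons 2 probe sets were higher and none lower, where 28.4% of all probe sets were called higher and 27.5% lower. By the same probe set *Actg1* read 183, 91.4 and 202 in neurons (log2 7.23 ± 0.51, limma adjusted p = 7.79e-06). Its second probe set read 1.01 to 1.06 in regenerating axons and 1.23 to 1.33 in neurons.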
